A study of Mus musculus with 4 samples.

Results

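The 32 genes described here encode the enzymes of glycolysis, the carriers of glucose and lactate, and a set of genes that respond to low oxygen. They were taken by symbol from the 28692 genes of the count matrices, and all 32 symbols were present once. They comprise 4 transporters, 3 hexokinases, 6 genes of the hexose phosphate steps, 8 of the triose and pyruvate steps, 2 lactate dehydrogenases and 9 genes of oxygen sensing and the hypoxia response. Expression was measured by droplet 3' RNA sequencing, as unique molecular identifiers (UMIs) per gene and cell, in B16-F10 tumours, a melanoma line that grows in C57BL/6 mice. All mice received Pmel-1 CD8 T cells, which carry a transgenic receptor for a melanocyte antigen, on day 3, and cells were sorted from the tumours on day 14. In the IRF4 arm the Pmel-1 cells had been transduced with IRF4-GFP, and in the control arm with GFP alone. Each arm gave 1 library of transferred Pmel-1 cells and 1 of endogenous CD45+ cells, which makes 4 libraries with 1 in each group. The endogenous libraries hold the host's own leukocytes, which were not transduced, and the sources used here do not say how many mice were pooled.

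Glycolysis breaks glucose down to pyruvate in the cytosol, and lactate dehydrogenase turns pyruvate into lactate, which monocarboxylate carriers take out of the cell. When oxygen falls, prolyl hydroxylases stop marking hypoxia-inducible factor (HIF) for destruction, and HIF raises transcription of most glycolytic genes and of genes that restrain mitochondria. Activated CD8 T cells and inflammatory macrophages both raise glycolysis, and tumours are regions where glucose and oxygen can run short.

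HIF binds DNA at a short core, ACGTG or GCGTG, so the promoters were searched for these letters on both strands. RefSeq promoter windows of GRCm38.p6, reaching from 250 bases before to 50 bases after 1 annotated start, matched 29 of the 32 genes. This start is not always the outer end of the gene: the Ldha window begins at 46845554 and the gene's span at 46841475. Other starts of a gene were not searched, and which start these cells use is not known. The core ACGTG was present in 18 of the 29 windows (62.1%), against 19.7% of 27025 windows of the same length. With GCGTG added, 24 of 29 windows (82.8%) held a match, against 43.8% of all windows. The 27025 windows were not matched to the 29 in base composition, on which the number of matches depends. ACGTG overlaps the palindrome CACGTG, which other factors bind and which counts as a match on each strand. The windows below are shown because Ldha held the most matches, 7, because Bnip3, Slc2a1 and Egln3 carry much of the variation between cell types described later, and because Tpi1, whose level ran from 124 to 894 CPM (UMIs scaled to a common total) across cell types and libraries, held none. Capitals mark each match, and CACGT and CACGC are matches on the other strand. The windows lie at chr7:46845554-46845853 (plus strand) for Ldha, chr7:138909457-138909756 (minus strand) for Bnip3, chr4:119108495-119108794 (plus strand) for Slc2a1, chr12:54203825-54204124 (minus strand) for Egln3 and chr6:124814109-124814408 (minus strand) for Tpi1.
Ldha: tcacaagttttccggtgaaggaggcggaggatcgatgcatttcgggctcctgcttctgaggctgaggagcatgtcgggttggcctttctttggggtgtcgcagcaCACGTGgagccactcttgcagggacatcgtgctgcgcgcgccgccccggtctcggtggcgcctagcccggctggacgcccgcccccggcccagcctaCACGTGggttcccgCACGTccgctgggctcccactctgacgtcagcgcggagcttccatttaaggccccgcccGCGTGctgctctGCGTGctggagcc
Bnip3: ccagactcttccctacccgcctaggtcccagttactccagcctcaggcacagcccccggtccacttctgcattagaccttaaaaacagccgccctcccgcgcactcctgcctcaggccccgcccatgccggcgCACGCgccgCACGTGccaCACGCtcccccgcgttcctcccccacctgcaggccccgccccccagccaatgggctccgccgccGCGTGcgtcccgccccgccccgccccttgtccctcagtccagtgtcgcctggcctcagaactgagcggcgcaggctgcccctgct
Slc2a1: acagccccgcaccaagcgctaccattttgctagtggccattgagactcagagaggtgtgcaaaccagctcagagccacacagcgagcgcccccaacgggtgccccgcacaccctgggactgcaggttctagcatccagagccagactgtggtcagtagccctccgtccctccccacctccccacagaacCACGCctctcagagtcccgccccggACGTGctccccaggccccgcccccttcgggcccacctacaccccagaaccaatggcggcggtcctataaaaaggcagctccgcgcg
Egln3: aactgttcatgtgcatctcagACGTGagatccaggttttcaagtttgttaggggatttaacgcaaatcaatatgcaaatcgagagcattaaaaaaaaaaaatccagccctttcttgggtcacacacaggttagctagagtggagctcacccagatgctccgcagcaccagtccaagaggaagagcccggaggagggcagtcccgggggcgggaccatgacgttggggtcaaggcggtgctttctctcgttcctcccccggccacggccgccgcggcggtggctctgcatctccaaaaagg
Tpi1: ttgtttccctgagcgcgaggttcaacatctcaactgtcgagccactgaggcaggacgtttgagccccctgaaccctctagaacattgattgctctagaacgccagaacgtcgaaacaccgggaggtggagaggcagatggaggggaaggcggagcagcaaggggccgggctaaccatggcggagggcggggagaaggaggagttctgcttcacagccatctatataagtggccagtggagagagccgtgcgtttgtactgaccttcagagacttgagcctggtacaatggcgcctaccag
Bnip3 held 5 matches, Slc2a1 held 2 and Egln3 held 1. Gpi1, Aldoa, Pkm and Hk1 also held none in this window. A match describes letters only and does not show binding.

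The 4 libraries held 17711 barcodes, of which 572 and 2513 transferred cells and 6371 and 5676 endogenous cells were kept in the IRF4 and control arms. Total UMIs ranged from 16664323 in the transferred IRF4 library to 94686409 in the transferred control library, and the 32 genes took between 0.981% and 1.26% of them. Between 0 and 18 barcodes were shared by a pair of libraries. Cells were assigned to types by gates on marker UMIs that use none of the 32 genes, and the CD8 gate held 468 and 1968 transferred cells and 1899 and 680 endogenous cells, in the same order. The CD8 and CD3 markers summed to between 3607 and 4393 UMIs scaled to a common total, as CPM, in the 4 CD8 gates. In endogenous monocytes and macrophages they summed to 26.5 and 34.2 CPM. Markers of this kind set the gates, so this contrast follows from the gating and is not a separate check of the types. Irf4, the transduced gene, was at 27.8 CPM in transferred IRF4 and 26.4 CPM in transferred control CD8 T cells. The sources used here do not say whether the vector's transcript is counted under Irf4, so this value does not check the labels. Red cell transcripts stood apart by arm: haemoglobin genes and Alas2 summed to 1000.2 CPM in endogenous control CD8 T cells and 79.4 CPM in transferred control CD8 T cells, against 0.454 and 0.318 CPM in the IRF4 arm.

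Levels are CPM of the UMIs summed over the cells of a type in 1 library, with exact Poisson 95% intervals. They can be compared for the same gene between cell types, but are not compared between genes here. A gene counts as measured where at least 1 of the compared libraries reached 10 CPM, and as higher or lower where log2(CPM + 1) differed by 1.5-fold or more. Printed ratios are plain ratios of CPM with exact conditional binomial 95% intervals. With 1 library in each group there is no replicate check, and all intervals cover counting error only. The sources used here do not say how reads shared with the processed copies of Gapdh, Ldha, Pgk1, Eno1, Tpi1 and Aldoa were counted, so the levels of these genes are uncertain to that extent.

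Cell types differed in the total of the 32 genes and, as described below, in the levels of single isoforms. Summed over the 32 genes, the level was 11837 CPM in monocytes and macrophages of the endogenous IRF4 library and 15849 CPM in those of the endogenous control library. It was 12860 and 11349 CPM in regulatory T cells and 10261 and 9577 CPM in endogenous CD8 T cells. B cells were at the low end with 3733 and 3184 CPM, and natural killer (NK) cells had 5046 and 4532 CPM.

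Glucose carriers divided the myeloid cells. Slc2a1, the glucose carrier found in most tissues, was at 183 CPM in monocytes and macrophages of the IRF4 arm, against 223 CPM in the control arm. In endogenous CD8 T cells it was at 32.7 and 57.0 CPM, and in transferred CD8 T cells at 36.5 and 33.8 CPM. Slc2a3, a carrier of high affinity, had the opposite order, with 3.94 and 5.02 CPM in monocytes and macrophages and between 30.1 and 50.03 CPM in the 4 CD8 gates. Neutrophils of the control arm, the only library with at least 50 of them, were at 255 CPM for Slc2a3 and 177 CPM for Slc2a1. Mature dendritic cells had no Slc2a3 UMI in either library. Of the cell types measured, monocytes and macrophages of the control arm thus had the highest Slc2a1 and neutrophils the highest Slc2a3.

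Lactate carriers showed a similar division. Slc16a3, the exporter of strongly glycolytic cells, was at 347 CPM in neutrophils, 174 and 212 CPM in monocytes and macrophages and 165 and 98.2 CPM in regulatory T cells of the IRF4 and control arms. It was between 37.3 and 58.5 CPM in the 4 CD8 gates and below 18 CPM in NK, CD4 T and B cells. Slc16a1, which carries lactate in either direction, was at 20.1 to 30.7 CPM in CD8 T cells and 8.62 and 11.1 CPM in monocytes and macrophages. Set against CD8 T cells of the same library, monocytes and macrophages had higher Slc16a3 by 4.92-fold (4.47 to 5.43) in the control arm and 4.68-fold (4.37 to 5.02) in the IRF4 arm. Slc16a1 was lower at 0.553-fold (0.464 to 0.661) and 0.351-fold (0.286 to 0.426).

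Hexokinases, which trap glucose in the cell, were used by type. Hk1, the widely expressed form, was at 49.03 to 58.4 CPM in the CD8 gates and 36.04 and 43.5 CPM in monocytes and macrophages. Hk3, a form of myeloid cells, was at 103 and 75.5 CPM in monocytes and macrophages of the IRF4 and control arms and between 1.27 and 3.32 CPM in CD8 T cells. Hk2, the form induced by growth signals and HIF, was at 73.1 and 57.1 CPM in monocytes and macrophages and 8.95 and 13.1 CPM in endogenous CD8 T cells. Transferred CD8 T cells had 21.6 CPM of Hk2 in the IRF4 arm, against 15.4 CPM in the control arm.

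At the hexose phosphate steps the control enzymes marked particular cells. Pfkfb3, which makes the activator of phosphofructokinase, was at 337 and 331 CPM in mature dendritic cells, against 92.0 and 73.3 CPM in monocytes and macrophages and 16.9 to 27.8 CPM in the CD8 gates. Its relative Pfkfb4 was at 143 CPM in neutrophils, 28.9 and 24.95 CPM in monocytes and macrophages and under 2 CPM in every CD8 gate. Pfkp, the platelet form of phosphofructokinase, reached 479 and 446 CPM in type 1 conventional dendritic cells. The liver form Pfkl was at 48.3 to 70.5 CPM in the CD8 gates, and the muscle form Pfkm stayed below 6 CPM in every cell type and library measured. Gpi1, the isomerase that precedes them, ranged from 284 CPM in NK cells to 788 CPM in monocytes and macrophages.

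Apart from Ldhb, each gene of the later steps had UMIs in every cell type and library measured, although Aldoc had only 2 in neutrophils. The types at the upper end differed by gene. Gapdh was at 3554 CPM in endogenous CD8 T cells of the IRF4 arm, against 3169 CPM in its monocytes and macrophages. In the control arm the order was reversed, at 3131 and 4598 CPM. Pkm, the last enzyme before pyruvate, was at 1458 and 1773 CPM in monocytes and macrophages, 1486 and 1116 CPM in regulatory T cells and between 548 and 852 CPM in the CD8 gates. Ldha, which makes lactate, was at 1574 and 1171 CPM in regulatory T cells and at 1491 and 1248 CPM in transferred CD8 T cells. Monocytes and macrophages had 913 and 1257 CPM of it. Plasmacytoid dendritic cells of the control arm had the highest level measured of Ldhb, the subunit that favours the return of lactate to pyruvate, at 125 CPM, against 4.59 to 10.1 CPM in the CD8 gates. They also had the highest Aldoc, an aldolase best known from brain, at 75.9 CPM. The map of levels by cell type and library shows these isoform patterns together.

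**Figure D1:**
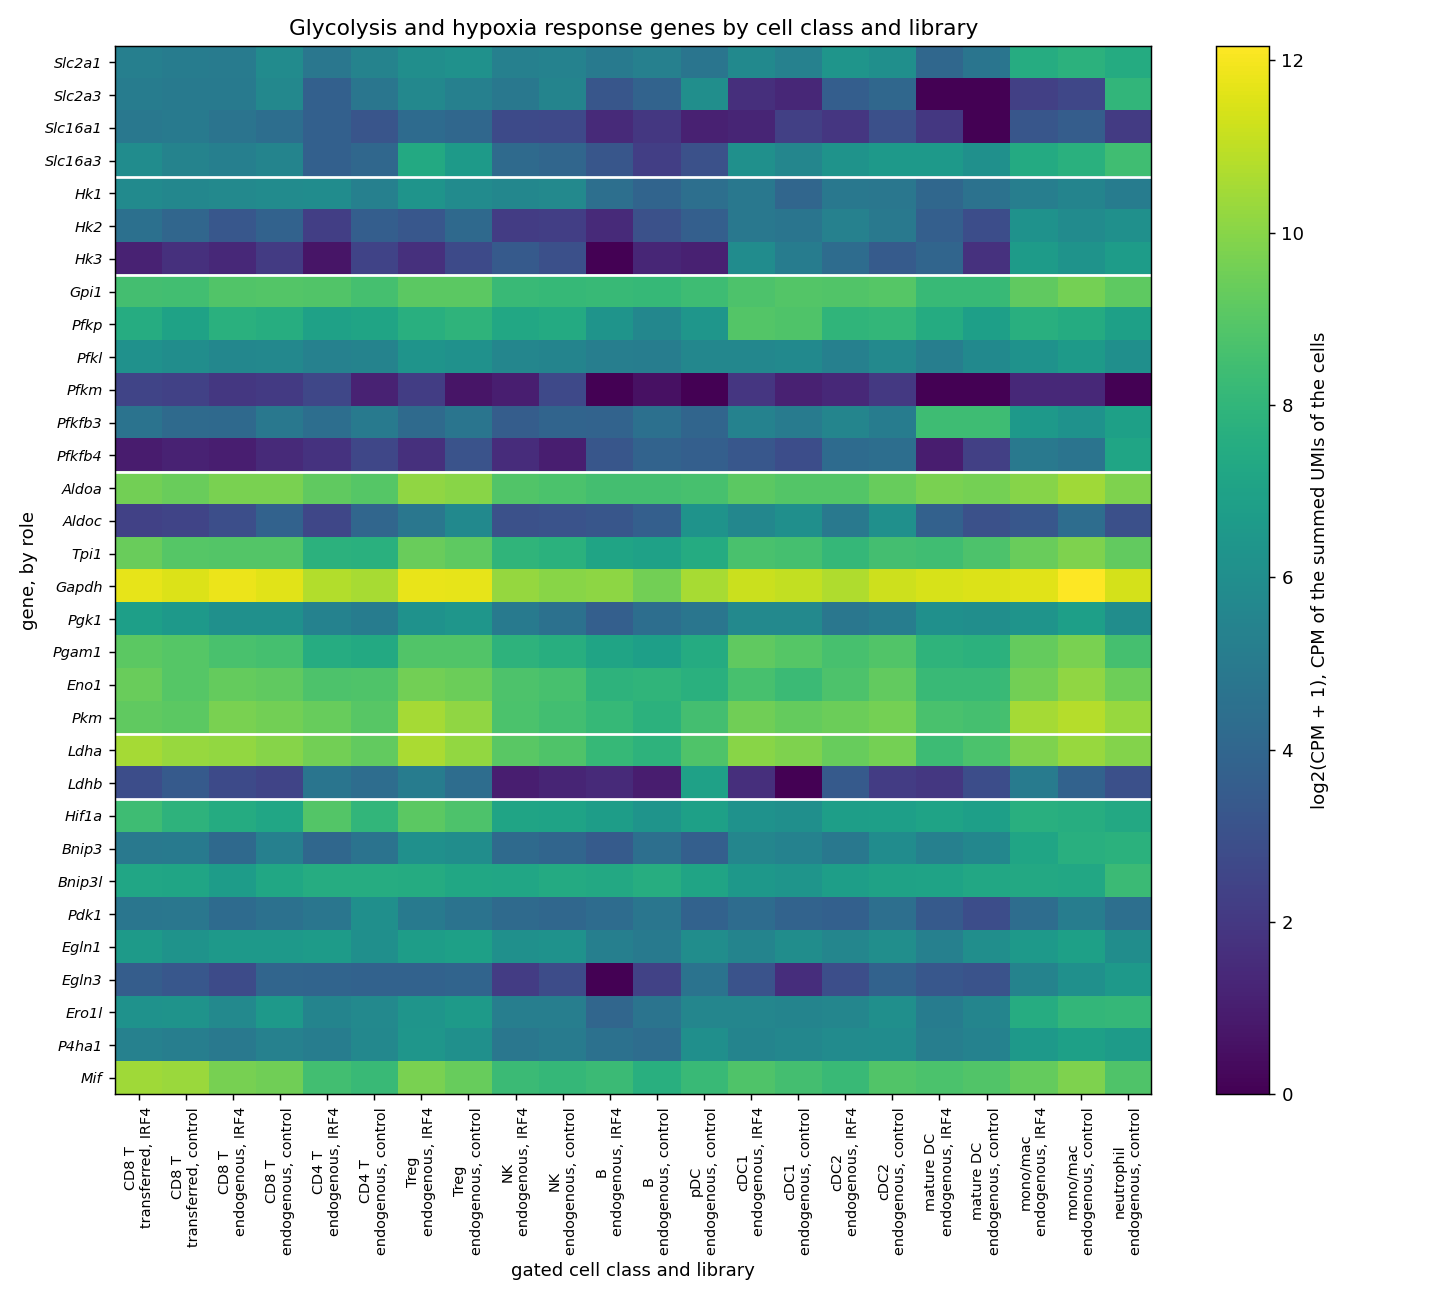
Colour gives log2(CPM + 1) of each of the 32 genes (rows, grouped by role and separated by white lines) in each gated cell class and library with at least 50 cells (columns). Slc2a3 is dark in mature dendritic cells and bright in neutrophils, Hk3 is bright in myeloid cells, and Pfkfb3 is brightest in mature dendritic cells at 337 and 331 CPM.

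Among the hypoxia response genes, Hif1a was higher in regulatory, CD4 and transferred CD8 T cells than in monocytes and macrophages. In endogenous CD8 T cells it was lower than in monocytes and macrophages. It was at 554 and 435 CPM in regulatory T cells, 476 and 253 CPM in CD4 T cells, 329 and 230 CPM in transferred CD8 T cells and 179 and 148 CPM in endogenous CD8 T cells. Monocytes and macrophages had 202 and 189 CPM. The genes that HIF induces had another order: Bnip3, a receptor for removal of mitochondria, was at 141 and 203 CPM in monocytes and macrophages and 214 CPM in neutrophils, against 16.99 to 38.2 CPM in the CD8 gates. Egln3, a prolyl hydroxylase that HIF induces, was at 42.9 and 66.9 CPM in monocytes and macrophages and 5.78 to 14.5 CPM in the CD8 gates. Ero1l, an oxidase of the endoplasmic reticulum, was at 184 and 262 CPM and at 52.4 to 92.9 CPM. The level of the Hif1a transcript and the levels of these induced genes were thus ordered differently across cell types.

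Summed over the 32 genes, monocytes and macrophages stood above CD8 T cells of the same library. The ratio was 1.65 in the control arm and 1.15 in the IRF4 arm. Some genes of high level ran the other way in the IRF4 arm without passing 1.5-fold. Gapdh was at 3169 CPM in monocytes and macrophages there, against 3554 CPM in CD8 T cells, and Ldha at 913 against 1173 CPM. In the control arm 20 of 31 measured genes were higher and 2 lower (Slc16a1 and Slc2a3), where 24.1% and 27.4% of 8431 genes tested were higher and lower. In the IRF4 arm 14 of 30 were higher and the same 2 named genes lower, where 26.1% and 33.5% of 8364 genes tested were. Hk3 was higher by 22.7-fold (16.2 to 32.9) and 62.8-fold (47.9 to 84.1), Pfkfb4 by 14.2-fold (8.92 to 24.1) and 28.1-fold (19.8 to 41.2), and Bnip3 by 5.31-fold (4.79 to 5.89) and 8.28-fold (7.53 to 9.11) in the control and IRF4 arms. The study's question, by its title, is what IRF4 does in CD8 T cells, and the comparisons between arms follow.

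Between transferred CD8 T cells of the IRF4 and control arms, no glycolysis or hypoxia gene was higher by 1.5-fold, and 1 of 28 measured genes, Ldhb, was lower. In this comparison 3.45% of 7458 genes tested were higher and 3.0% lower. Ldhb was at 6.28 CPM in the IRF4 arm, against 10.1 CPM in the control arm, a ratio of 0.624 (0.487 to 0.790). Its level lies just over the minimum, and it was not called with a stricter cell filter (log2 ratio -0.53), without cells holding a cycle gene UMI (-0.48) or with equal weight for each cell. The other genes lay close together above equality: 23 of the 28 ratios were above 1, with a median log2 ratio of 0.17 against 0.01 over all genes tested. Summed over the 32 genes, the ratio was 1.15 (1.147 to 1.161).

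The ratios nearest the threshold came from several roles. Hif1a was at 329 CPM in the IRF4 arm, against 230 CPM in the control arm, a ratio of 1.43 (1.38 to 1.48). Hk2 had a ratio of 1.40 (1.22 to 1.60), and Pfkp, at 181 and 130 CPM, had 1.40 (1.33 to 1.46). Pfkfb3, Tpi1, Slc16a3 and Eno1 had ratios of 1.38, 1.36, 1.35 and 1.35. Genes that HIF induces had ratios on both sides of 1, with Bnip3 at 0.986, Ero1l at 0.969, Pdk1 at 0.967 and Egln3 at 1.24. Of 26 further HIF targets and regulators 21 were measured, 0 were higher and 4 were lower, namely Hilpda, Arg1, Hmox1 and Vegfa. No gene among 7 measured of the pentose phosphate pathway or 10 measured of pyruvate use was called in either direction.

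Cell cycle genes moved with this comparison. All 5 that were examined, Mki67, Top2a, Birc5, Cdk1 and Ccnb2, were higher in the IRF4 arm, with summed levels of 1202 and 700.4 CPM. Without cells holding a UMI of at least 1 of them the median log2 ratio was 0.05, with 3 genes higher and 3 lower. The share of all genes tested that passed in these cells is not given here, so no result is read from these counts. Cells holding such a UMI were also the deeper ones, with median UMIs of 24862 against 8613 in the IRF4 arm and 29504 against 9147 in the control arm, so this split partly follows depth. The part of either in the ratios was not tested further.

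Some gated CD8 T cells grouped with other cell types when all cells were clustered without the 32 genes. Among the 25 clusters, those in which at least 60% of the gated cells were CD8 T cells and at least 40% of all cells were gated are called CD8-majority clusters here, although cluster 4 of them had Cd4 among its leading genes. Cells outside these clusters were 1.92% of gated cells in the transferred IRF4 library, 5.34% in the transferred control, 8.90% in the endogenous IRF4 and 16.6% in the endogenous control library. In the transferred control library they lay mostly in cluster 2, which is led by C1qa, C1qb and C1qc of macrophages and held 91 of these cells at a median of 93437 UMIs. They carried 15.9% of that gate's UMIs but 42.3% of its Bnip3 and 54.4% of its Egln3 UMIs. Whether these barcodes held more than 1 cell was not tested.

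Restricting the comparison to CD8-majority clusters changed which genes passed. Then 2 of 28 measured genes were higher in transferred IRF4 cells, against 3.50% of 7408 genes tested, and Ldhb remained the gene that was lower, at 0.591 (0.460 to 0.751), against 2.54%. Egln3, at 10.2 and 4.79 CPM just over the minimum level, was higher at 2.13-fold (1.70 to 2.66) and Pfkfb3 at 1.53-fold (1.33 to 1.76). Hk2 had a ratio of 1.53 (1.32 to 1.77) without passing on the scale with the pseudocount. Bnip3 then had a ratio of 1.34 (1.18 to 1.52), and the median log2 ratio was 0.26. The plot of ratios by gene shows both versions side by side.

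**Figure D2:**
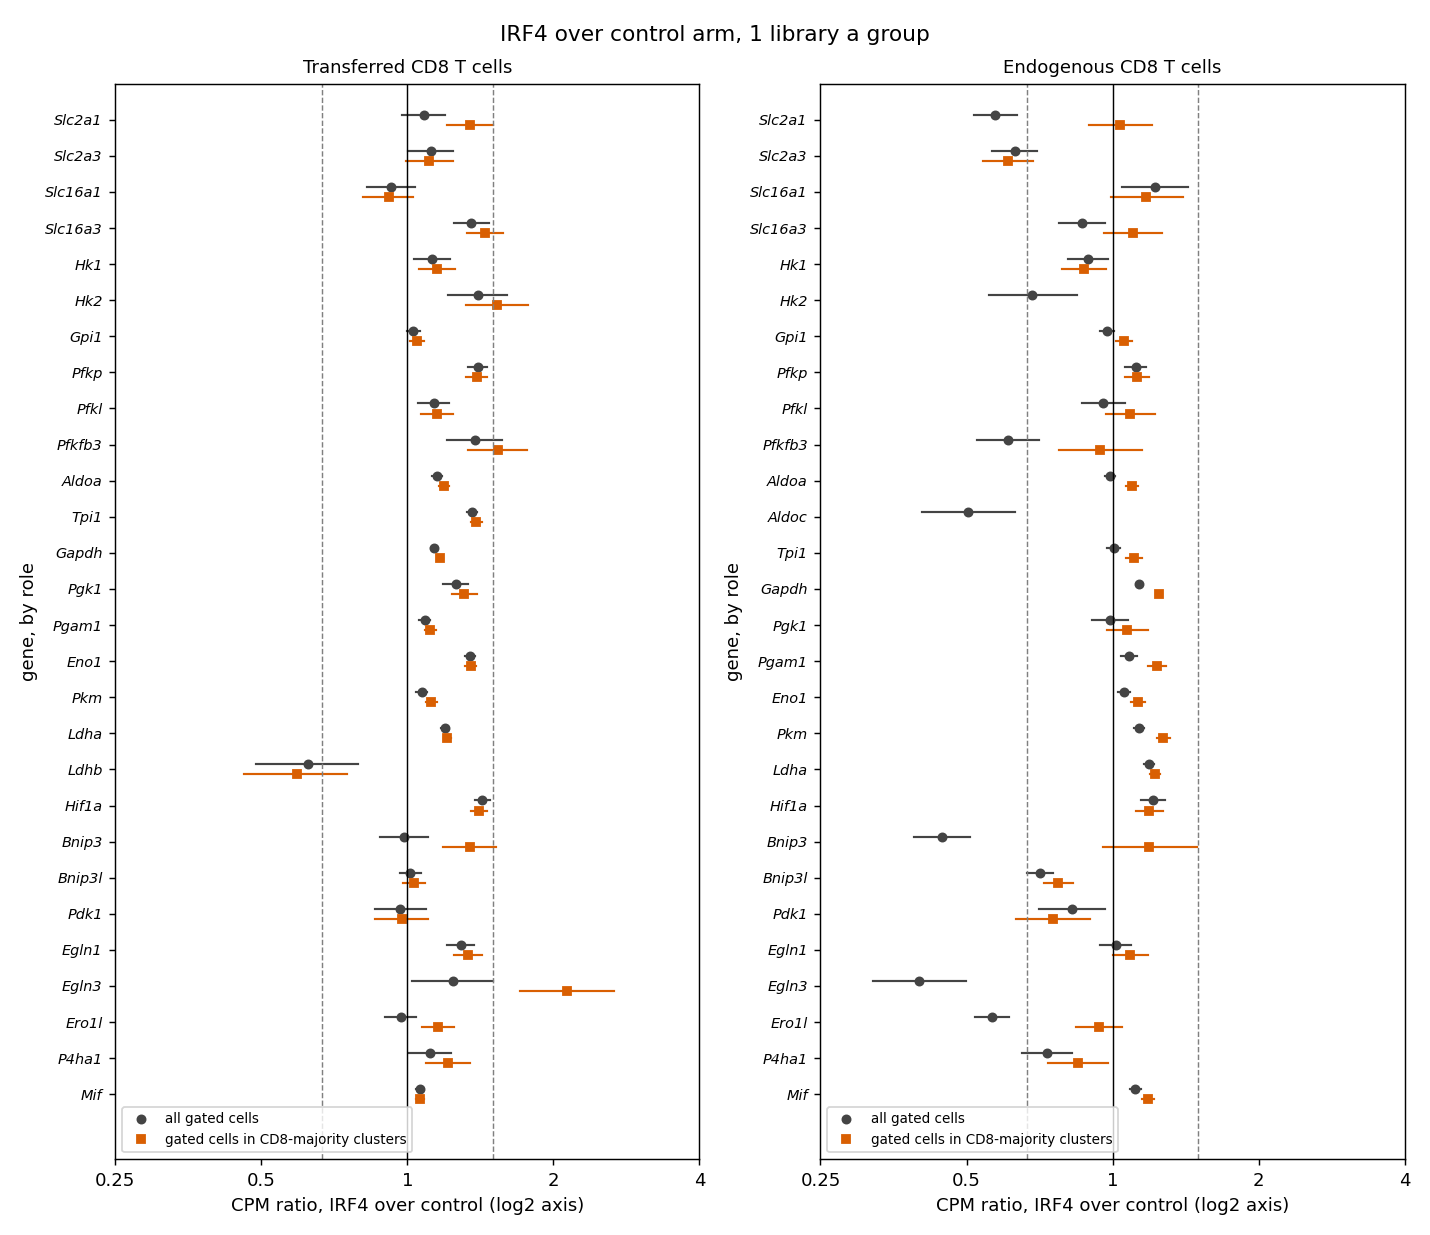
Points give the CPM ratio of the IRF4 over the control arm on a log2 axis for each measured gene, in transferred (left) and endogenous (right) CD8 T cells, with lines for the 95% counting interval and dashed lines at 1.5-fold either way. Circles use all gated cells and squares the gated cells in CD8-majority clusters, where the endogenous ratios of Bnip3 and Slc2a1 move from 0.445 and 0.573 to 1.19 and 1.04.

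Endogenous CD8 T cells, which share the tumours with the transferred cells, had 7 of 28 measured genes lower in the IRF4 arm and 0 higher. In this comparison 6.21% of 7712 genes tested were lower and 3.42% higher. The 7 genes were Slc2a1, Slc2a3, Pfkfb3, Aldoc, Bnip3, Egln3 and Ero1l. Bnip3 was at 16.99 CPM in the IRF4 arm, against 38.2 CPM in the control arm, a ratio of 0.445 (0.390 to 0.507). Egln3 had a ratio of 0.399 (0.321 to 0.498), Slc2a1 of 0.573 (0.518 to 0.635) and Ero1l of 0.564 (0.520 to 0.611). Of the further HIF targets and regulators, 8 of 21 measured were lower and 0 higher. Hilpda, Arg1, Hmox1 and Vegfa were among the 8, which are not given here within CD8-majority clusters.

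Several of these differences rested on few cells. In the endogenous control library, 50% of the Egln3 UMIs were in 10 cells of 680, 50% of the Bnip3 UMIs in 12 and 50% of the Slc2a1 UMIs in 17. The 113 gated cells outside CD8-majority clusters carried 24.1% of the gate's UMIs but 75.0% of its Egln3, 74.7% of its Bnip3, 60.9% of its Slc2a1 and 55.7% of its Ero1l UMIs. Slc2a3 was spread more widely, with 50% of its UMIs in 49 cells and 20.5% of them outside those clusters. Of the cells outside, 14 cells in cluster 2 and 6 in cluster 13, whose leading genes include C1qa and Inhba in turn, held 127 and 70 of the 391 Bnip3 UMIs. Macrophage and monocyte markers summed to 827 CPM in this gate, against 583 CPM in the endogenous IRF4 gate and 384 and 411 CPM in the transferred gates.

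Within CD8-majority clusters only Slc2a3 remained lower, at 0.608 (0.541 to 0.685), among 25 measured genes, where 3.98% of 7534 genes tested were lower and 2.91% higher. Slc2a1 then had a ratio of 1.04 (0.896 to 1.203), Bnip3 of 1.19 (0.953 to 1.49) and Ero1l of 0.937 (0.841 to 1.05). Pfkfb3 had a ratio of 0.942 (0.775 to 1.15). Egln3, Aldoc and Hk2 were no longer measured. The median log2 ratio was 0.13. Ldha, Gapdh and Pkm had ratios of 1.22, 1.24 and 1.27, and the Bnip3l ratio was 0.773 (0.720 to 0.829). The 3 cycle genes Cdk1, Ccnb2 and Birc5 were higher in the IRF4 arm over all gated cells.

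Transferred and endogenous CD8 T cells of the same arm came from the same tumours and were set against each other next, using libraries that also enter the comparisons above. In the IRF4 arm 7 of 27 measured genes were higher in transferred cells and 0 lower, where 5.67% of 7547 genes tested were higher and 10.3% lower. Hk2 was at 21.6 CPM in transferred and 8.95 CPM in endogenous cells, a ratio of 2.41 (2.03 to 2.85). Egln3 had a ratio of 1.90 (1.52 to 2.38), Hif1a of 1.84 (1.76 to 1.91) and Bnip3 of 1.74 (1.52 to 1.98). The other genes past the threshold were Pgk1, the kinase that makes the first ATP of the pathway, at 1.69 (1.58 to 1.80), Mif, a cytokine gene that HIF induces, at 1.65 (1.62 to 1.68), and Slc16a3 at 1.57 (1.43 to 1.72). All 9 genes of oxygen sensing and the hypoxia response had ratios above 1, with 4 called higher and a median log2 ratio of 0.50, against -0.07 over all genes tested. Each of the 7 ratios stayed past 1.5-fold in all 11 alternatives tried, although Hk2, Egln3 and Bnip3 fell short of the minimum level when it was set at 50 CPM.

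In the control arm, 4 of 29 measured genes were higher in transferred cells and 5 lower, where 6.50% and 13.7% of 7812 genes tested were. Mif was at 1287 CPM in transferred and 743 CPM in endogenous cells, a ratio of 1.73 (1.69 to 1.77), and Hif1a had a ratio of 1.56 (1.48 to 1.64). Ldhb, at 10.1 and 4.59 CPM, had a ratio of 2.19 (1.63 to 3.02), and Slc16a1 of 1.53 (1.32 to 1.77). The genes lower in transferred cells were Slc2a1, Slc2a3, Pfkfb3, Aldoc and Egln3, and of their UMIs in endogenous control cells, between 54.0% (Pfkfb3) and 75.0% (Egln3) lay outside CD8-majority clusters, except for Slc2a3 with 20.5%.

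Within CD8-majority clusters the control arm had 5 of 27 measured genes higher in transferred cells, against 6.62% of 7662 genes tested, and 1 lower, against 12.0%. Hk2 was higher at 1.87-fold (1.43 to 2.50), Bnip3 at 1.61-fold (1.31 to 1.999), Hif1a at 1.53-fold (1.44 to 1.63), Mif at 1.81-fold (1.76 to 1.86) and Ldhb at 2.48-fold (1.75 to 3.62). Slc2a3 was lower at 0.572-fold (0.512 to 0.640). In the IRF4 arm the same 7 genes as over all gated cells were higher, against 6.08% of 7514 genes tested, and 0 were lower, against 10.3%. Hk2, Hif1a, Bnip3 and Mif were therefore higher in transferred cells of both arms in these clusters. Over all gated cells of the control arm, Bnip3 ran the other way, at 29.9 CPM in transferred and 38.2 CPM in endogenous cells. Hk2 was at 15.4 and 13.1 CPM there, and neither gene was called. Pkm ran the other way without passing, at 0.676 (0.658 to 0.693) in the IRF4 arm, against 0.767 (0.744 to 0.790) in the control arm. Transferred and endogenous cells also differed in depth, with median UMIs in the gate of 15760.5 and 10878 in the IRF4 arm, against 19238.5 and 8874.5 in the control arm, and in handling stress genes, of which 6 of 10 in the IRF4 arm and 5 of 10 in the control arm were lower in transferred cells. The part of either was not tested.

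**Figure D3:**
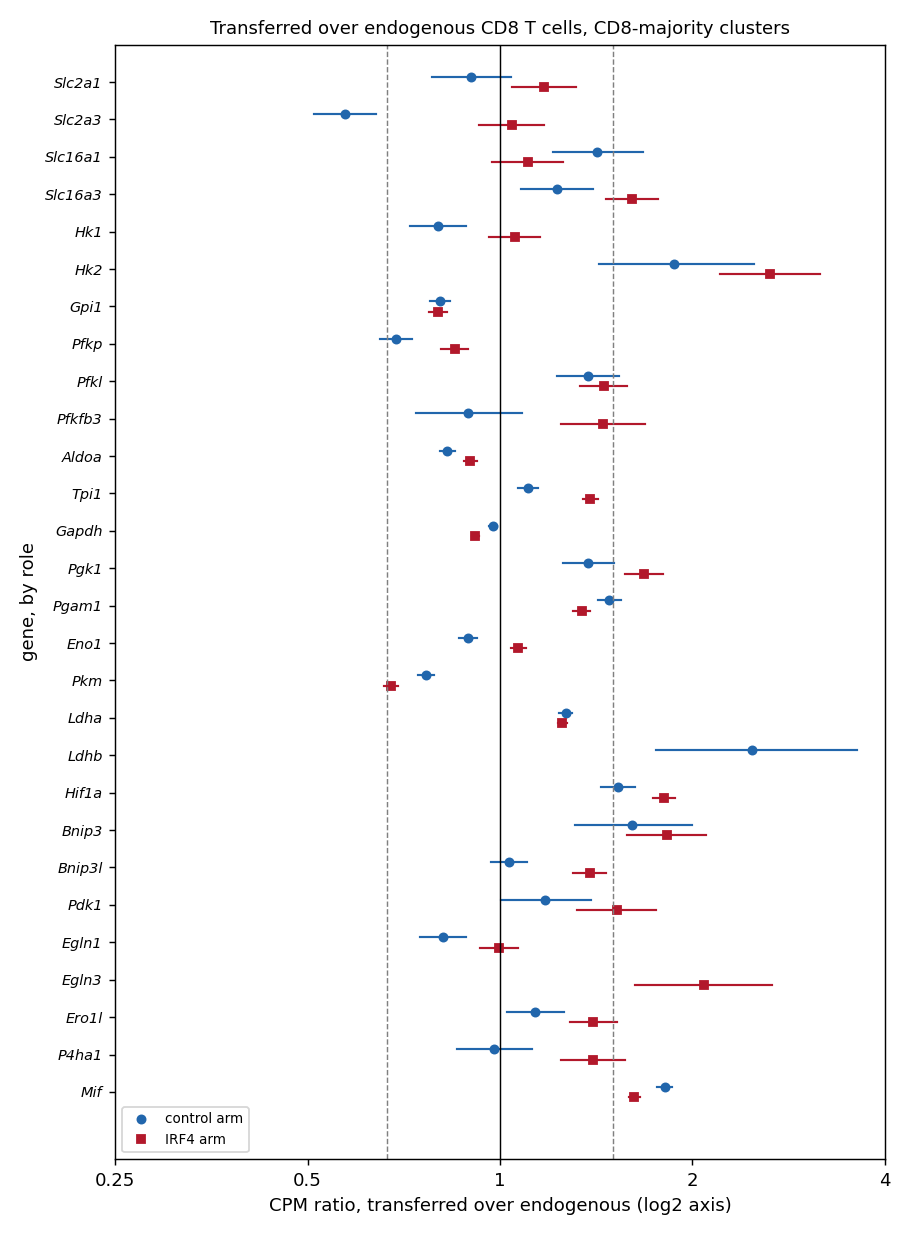
Points give the CPM ratio of transferred over endogenous CD8 T cells on a log2 axis for each measured gene, using gated cells in CD8-majority clusters, with lines for the 95% counting interval and dashed lines at 1.5-fold either way. Hk2, Hif1a, Bnip3 and Mif lie beyond 1.5-fold in both the control arm (circles) and the IRF4 arm (squares). Over all gated cells of the control arm, not plotted here, Hk2 and Bnip3 were not called.

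CD8 T cells were in different clusters in the 4 libraries, and the level of the 32 genes differed between clusters by more than between arms. In transferred cells the main clusters were cluster 3, with 27.1% of IRF4 and 36.2% of control cells, and cluster 8, with 24.1% and 18.8%. Cluster 8, whose leading genes include Cdc45 of DNA replication, summed to 13262 CPM in the IRF4 arm, against 11257 CPM in the control arm. Cluster 3, whose leading genes include Id3 and Dapl1, summed to 7923 and 7877 CPM. Cluster 10, led by genes of secreted factors such as Ifng, Csf2 and Ccl4, summed to 10511 and 9647 CPM. In cluster 3, which had nearly the same sum in both arms, the median log2 ratio between arms was 0.04.

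Among endogenous cells, cluster 6 held 32.5% of gated CD8 T cells in the IRF4 arm, against 12.9% in the control arm, and cluster 7 held 26.7% and 32.2%. Cluster 6, led by Gzmk with histone and mitosis genes, summed to 11762 and 11441 CPM, and cluster 5, led by Gzme, Gzmf and other cytotoxic genes, to 10225 and 11299 CPM. Cluster 7, led by Ccl5 and Cxcr3, summed to 5012 and 5397 CPM. Cluster 4, whose leading genes include Lef1 and S1pr1, was lowest at 3808 and 3429 CPM in the endogenous libraries and 3420 CPM in transferred control cells.

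**Figure D4:**
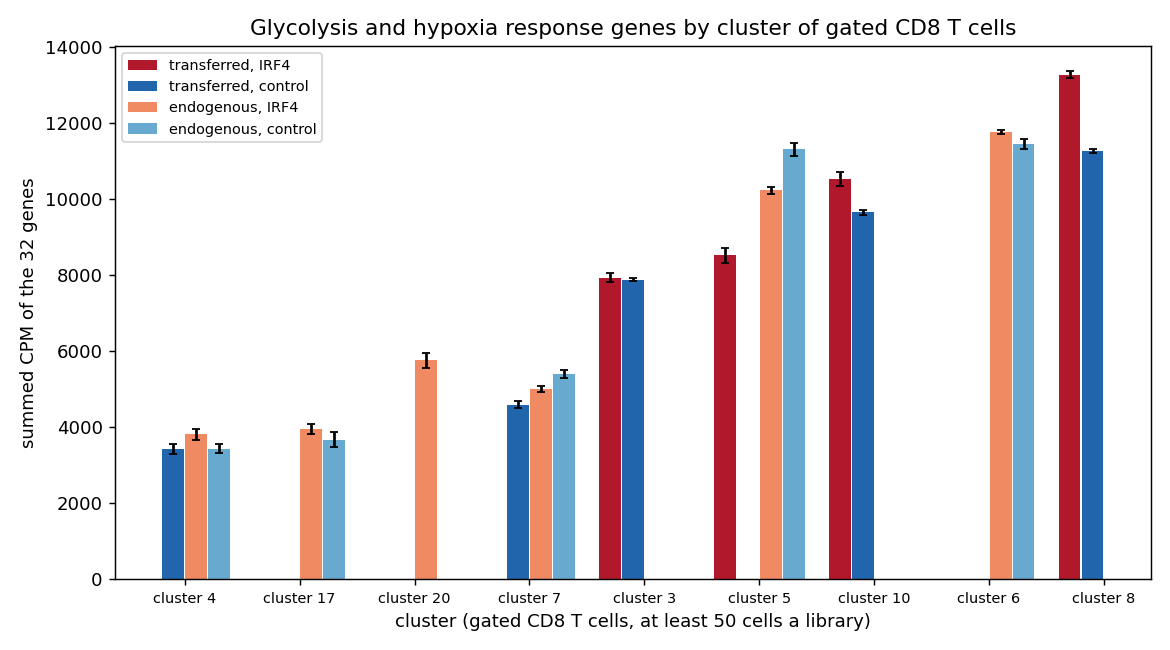
Bars give the summed CPM of the 32 genes in gated CD8 T cells of each cluster and library with at least 50 cells, with lines for the 95% counting interval. Clusters 4, 17 and 7 lie between 3420 and 5397 CPM and clusters 6 and 8 between 11257 and 13262 CPM.

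The genes that separated these clusters were mostly those of the triose, pyruvate and lactate steps. Tpi1, the isomerase of the triose phosphates, was at 852 and 651 CPM in cluster 8 of the transferred IRF4 and control libraries and at 86.2 and 93.2 CPM in cluster 4 of the endogenous libraries. Slc16a3 was at 77.8 and 57.8 CPM in cluster 8 and at 1.41 and 6.21 CPM in cluster 4. Pdk1, a kinase that restrains the use of pyruvate in mitochondria, had another order. It was at 30.9 and 27.4 CPM in cluster 8 of the transferred libraries. In the endogenous libraries it was at 48.1 and 49.7 CPM in cluster 4 and 13.03 and 15.7 CPM in cluster 6. Hif1a was at 487 and 319 CPM in cluster 3 and 275 and 199 CPM in cluster 8, so it was not ordered like the glycolytic enzymes.

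Cells with a UMI of a cycle gene, called cycle-positive here, were then compared with the others within each CD8 gate. Of measured genes, 13 of 27 were higher in cycle-positive cells of the transferred IRF4 library, 4 of 27 in the transferred control, 12 of 25 in the endogenous IRF4 and 15 of 28 in the endogenous control library. The shares of all genes tested that were higher were 18.0%, 7.06%, 21.9% and 20.8%. Genes lower in cycle-positive cells numbered 0, 0, 2 and 1, where 12.3%, 4.57%, 14% and 9.55% of all genes tested were lower. Tpi1, Pgam1, a phosphoglycerate mutase, and Slc16a3 were higher in all 4 libraries, Tpi1 by 1.94-fold, 1.73-fold, 3.16-fold and 2.95-fold in that order. Pdk1 was lower in cycle-positive endogenous cells, at 0.439-fold and 0.514-fold, and higher in cycle-positive transferred IRF4 cells, at 2.03-fold. These cells were again deeper, with median UMIs of 19064 against 6730 in the endogenous IRF4 library and 17120 against 7385 in the endogenous control library, and the part of depth was not tested.

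Monocytes and macrophages of the 2 endogenous libraries differed in the total of the 32 genes. The sum was 11837 CPM in the IRF4 arm, against 15849 CPM in the control arm, a ratio of 0.747 (0.743 to 0.751), and 22 of 30 measured genes had ratios below 1, with a median log2 ratio of -0.38 against -0.05 over all genes tested. Of the 30, 3 genes were lower and 1 higher, where 6.53% of 7460 genes tested were lower and 6.10% higher. Aldoc was at 8.77 and 19.2 CPM, a ratio of 0.457 (0.372 to 0.558). Pdk1 was at 19.7 and 35.2 CPM, a ratio of 0.560 (0.487 to 0.641), and Egln3 at 42.9 and 66.9 CPM, a ratio of 0.641 (0.583 to 0.703). Ldhb was higher, at 31.9 against 13.1 CPM, a ratio of 2.43 (2.11 to 2.79). The hexokinases Hk2 and Hk3 had ratios of 1.28 and 1.36, and all 8 genes of the triose and pyruvate steps had ratios below 1. Of 26 further HIF targets and regulators 22 were measured, of which 6 were lower and 0 higher.

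The cells of this gate lay in different clusters in the 2 arms. Cluster 1, led by Ace and Adgre4 of patrolling monocytes, held 44.6% of gated cells in the IRF4 arm, against 22.7% in the control arm. Cluster 9, led by Ccl7, Ccl2 and Vcan, held 21.0% and 44.2%, and cluster 11, led by Cxcl9 and Cxcl10, held 17.5% and 6.33%. Cluster 13, whose leading genes include Inhba, Nos2, Vegfa and Hilpda, held 11.3% and 14.1%. The sum of the 32 genes was 4800 and 5498 CPM in cluster 1, 7998 and 10210.5 CPM in cluster 11, 16778 and 16721 CPM in cluster 9 and 28417 and 33369.8 CPM in cluster 13, in the IRF4 and control arms. The clusters thus differed more than the arms did within any of these clusters. Within cluster 9 the median log2 ratio was 0.06, within cluster 1 it was -0.20 and within cluster 13 it was -0.18.

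**Figure D5:**
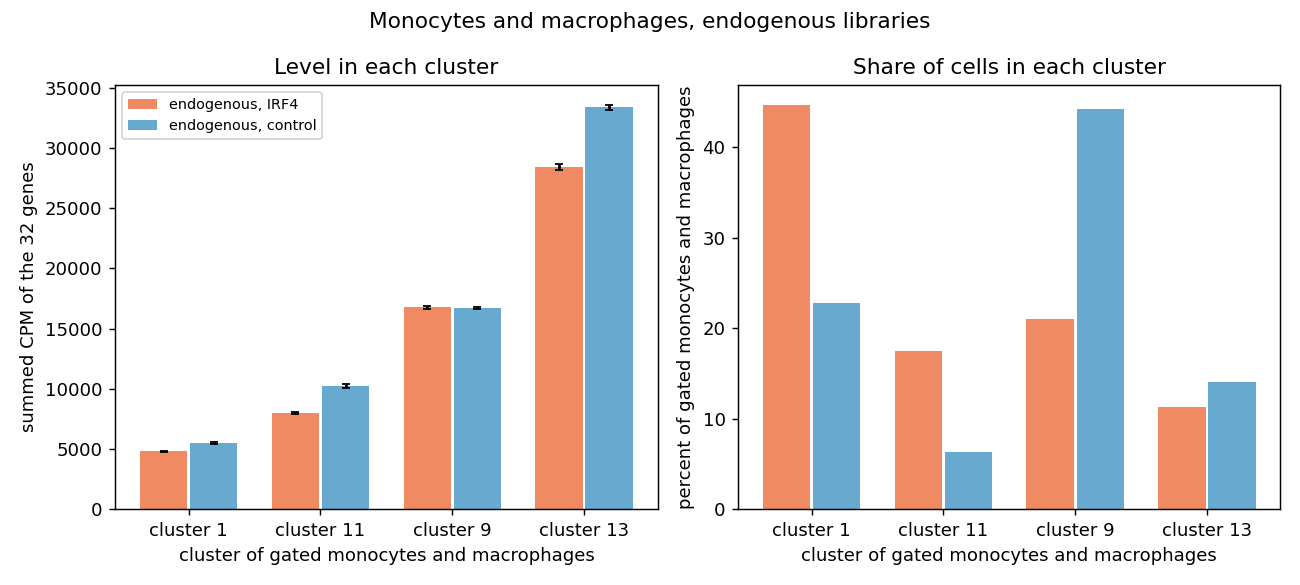
Left bars give the summed CPM of the 32 genes in gated monocytes and macrophages of each cluster, with lines for the 95% counting interval, and right bars the percent of gated cells in each cluster, for the IRF4 and control arms. The level runs from 4800 and 5498 CPM in cluster 1 to 28417 and 33369.8 CPM in cluster 13, while cluster 1 holds 44.6% of IRF4 and 22.7% of control cells.

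Single genes followed the clusters. Slc2a1 was at 27.98 and 36.3 CPM in cluster 1 and 680.1 and 779 CPM in cluster 13, and Egln3 at 1.74 and 5.13 CPM and at 248 and 329 CPM. Ero1l was at 28.8 and 40.4 CPM in cluster 1 and 953 and 1170.2 CPM in cluster 13. Ldhb ran the other way, with 53.4 and 35.1 CPM in cluster 1 and 5.84 and 3.12 CPM in cluster 13, and so did Pfkfb4, with 40.1 and 47.2 CPM and with 12.4 and 16.7 CPM. Bnip3l, a relative of Bnip3, was at 214 and 217 CPM in cluster 1 and 275 and 387 CPM in cluster 13. Other transcripts also moved with the arm in this gate: 7 of 10 handling stress genes were higher in the IRF4 arm, 5 of 5 cycle genes lower, and red cell markers summed to 1.41 CPM in the IRF4 and 1239.5 CPM in the control arm. Tumour cell markers summed to 57.4 and 50.6 CPM. Their part in the ratios was not tested.

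The share of cells with a UMI of any of 5 HIF-induced genes (Bnip3, Egln3, Ero1l, P4ha1 and Pdk1) was taken after thinning each cell to 2000 UMIs. It was 37.0% (34.1 to 40.02) in monocytes and macrophages of the IRF4 arm and 49.1% (46.7 to 51.6) in those of the control arm, with exact Clopper-Pearson 95% intervals. In CD8 T cells it was 25.9% (21.9 to 30.1) and 22.1% (20.3 to 24.0) among transferred and 19.3% (17.5 to 21.1) and 20.1% (17.2 to 23.4) among endogenous cells. B cells, the type with the lowest summed level, had 16.5% (10.4 to 24.4) and 16.4% (13.3 to 20.002), and NK cells 14.98% and 14.7%. The intervals of both endogenous CD8 shares and of the transferred IRF4 share overlapped those of B cells of the same arm, so no difference from B cells is read from them. No cell type here is known to lack these genes, so the B cell share is not a measure of background. Median depths were 11535.5 and 14762 UMIs in monocytes and macrophages and 3339 and 3615 in B cells, and unthinned shares were 74.2% and 88.6% in monocytes and macrophages and 25.6% and 26.6% in B cells. Few cells were too shallow to thin, at most 10 in a gate.

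Within monocytes and macrophages, thinned cells with such a UMI were set beside those without, as a description. Slc2a1 was 6.02 times as high in the IRF4 arm (391 against 665 cells) and 4.53 times in the control arm (834 against 863 cells). Mif was 4.96 and 2.96 times, Tpi1 4.47 and 3.08 times, Pfkfb3 4.25 and 2.98 times and Ldha 2.83 and 2.62 times as high. Ldhb was at 0.491 and 0.466 times and Pfkfb4 at 0.593 and 0.669 times. Genes of the pentose phosphate pathway summed to 0.724 and 0.735 times, and genes of pyruvate use to 0.815 and 0.804 times. In transferred CD8 T cells the same split gave 2.69 and 1.74 times for Slc2a1 and 1.32 and 1.39 times for Ldha.

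Other endogenous cell types gave fewer UMIs. In type 2 conventional dendritic cells (115 and 129 cells) 5 of 29 measured genes were lower in the IRF4 arm, namely Pdk1, Bnip3, Mif, Aldoc and Egln3, and 1 was higher, Hk3, where 8.44% and 7.48% of 7776 genes tested were lower and higher. Bnip3 was at 28.6 and 58.8 CPM, a ratio of 0.487 (0.348 to 0.671), and Mif at 299 and 460 CPM, a ratio of 0.651 (0.587 to 0.721). In this gate 9 of 10 handling stress genes were higher in the IRF4 arm, and 4 of 5 cycle genes lower. CD4 T cells (311 and 244 cells) had 3 genes higher and 6 lower, where 10.5% and 9.31% of 7927 genes tested were. The genes higher were Hif1a, Hk1 and Egln1, with Hif1a at 476 and 253 CPM, a ratio of 1.88 (1.66 to 2.13). The genes lower were Slc2a1, Slc2a3, Hk2, Pfkfb3, Aldoc and Pdk1, with Pdk1 at 26.8 and 66.7 CPM. In this gate 5 of 10 handling stress genes were higher and 1 lower in the IRF4 arm, and 3 of 5 cycle genes were higher. NK cells (945 and 510 cells) had 0 higher and 1 lower, Slc2a3 at 0.654 (0.516 to 0.830), where 2.26% and 2.18% of 7701 genes tested were, and 4 of 9 measured stress genes and 5 of 5 cycle genes were higher. B cells (121 and 493 cells) had 2 of 25 measured genes higher, Mif at 1.53-fold (1.28 to 1.83) and Pfkp at 1.59-fold (1.09 to 2.29), and 6 lower, where 14.3% and 10.6% of 7777 genes tested were. In B cells of the IRF4 arm 50% of the Mif UMIs were in 6 of 121 cells and 50% of the Pfkp UMIs in 3, and 5 of 5 cycle genes were higher between arms, with a median log2 ratio of 3.46. The part of these values in the ratios was not tested. Mif, whose product is a cytokine, was therefore above 1.5-fold in B cells and below it in the other direction in type 2 dendritic cells, and this difference between cell types was not tested.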

How the data were processed

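Single-cell 3' RNA sequencing libraries of 4 samples were used, 1 in each group. The deposited files hold raw UMI counts per gene and cell barcode, and the submitters' processing notes name Cell Ranger 3.0.2, STAR 2.6 and the mm10 build for what the authors did. The sources used here do not give the gene annotation, the treatment of reads with several matches or whether the vector transcript is counted. The labels' protocols speak of cells in one place and of nuclei in another, so which was loaded is not settled here.

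Barcodes with at least 1000 UMIs, 500 genes and at most 10% mitochondrial UMIs were kept, and cells were typed by gates on marker UMIs. Cells in several gates or none were left out of types. No doublet caller was run, and leaving out the 6% of cells with the most UMIs was an alternative. For each type and library, member UMIs and total UMIs were added up and their ratio scaled to give CPM. Cell types need at least 50 cells for a level and 100 for a comparison between arms. Genes had to reach 10 CPM in at least 1 of the compared libraries and were called at 1.5-fold on log2(CPM + 1), which understates the change of low genes. With 1 library in each group no test was run and no p-value is given. Intervals are at 95% and cover counting error only, and a level of 0 allows up to 3 counts.

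All kept cells were clustered on 2000 variable genes without the 32 genes and Irf4 (30 components, 15 neighbours, Leiden resolution 1, 25 clusters). The tools were scanpy 1.11.5 with igraph 0.11.9 for clustering, scipy 1.17.1 for intervals and matplotlib 3.10.9 for plots, under Python 3.11.15. The calling step was tested on simulated counts. The 32 genes and the pathway lists were chosen with earlier results of these data known. Every measured gene of the 32 could be named, with those past 1.5-fold in a comparison named first. Alternatives covered scaling, pseudocount, minimum level, cell filter, weight of cells, cells with a cycle UMI and cell types from clusters.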

Additional observations from a re-analysis of the deposited data

Results flagged for a closer look

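Ldhb had ratios between the IRF4 and control arms that lay on opposite sides of 1 in different cell types. It was 2.43 in endogenous monocytes and macrophages and 0.624 in transferred CD8 T cells. Mif likewise had a ratio of 1.53 in endogenous B cells and 0.651 in endogenous type 2 conventional dendritic cells. In B cells of the IRF4 arm 50% of the Mif UMIs were in 6 of 121 cells, and 5 of 5 cycle genes were higher there than in the control arm. Ldhb in transferred CD8 T cells, at 6.28 and 10.1 CPM, was no longer called with a stricter cell filter. With 1 library in each group, the difference between cell types was not tested in either case.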

How the results depend on the processing

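Of 190 counts, medians and other summaries recomputed under alternatives, 118 stayed within their margin and 72 moved, and the cause was not tested in any of them. Restrictions to single clusters, to gated cells in CD8-majority clusters and to cells other than the 10 richest in HIF response UMIs were chosen after seeing the data. No paired analysis was possible because each group is 1 library. Counts are genes higher or lower, medians and single genes are log2 ratios. Except for CD8-majority clusters, the shares of all genes tested under these alternatives are not given here. The counts therefore describe only how far the calls depend on the processing.

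For transferred CD8 T cells between arms, 0 genes were lower at a minimum of 50 CPM, with the stricter cell filter (2000 UMIs, 5% mitochondrial) and with equal weight for each cell, which also gave 3 higher. Without cells holding a cycle UMI 3 were higher and 3 lower (median 0.048). Cell types from clusters gave 1 higher, CD8-majority clusters 2, and cluster 3 alone 3 higher and 4 lower (median 0.037).

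For endogenous CD8 T cells between arms, 3 genes were lower at 50 CPM, 1 with equal weights, 4 without the 10 richest cells, and 1 higher and 1 lower in cluster 7, where Slc2a3 (0.017) and Pfkfb3 (0.012) were no longer below 0. Cell types from clusters gave 2 lower and a median of 0.24, with Slc2a1 (0.10), Pfkfb3 (0.045), Bnip3 (0.26) and Egln3 (0.22) changing sign. CD8-majority clusters gave 1 lower and a median of 0.13, with Slc2a1 (0.050), Bnip3 (0.23) and Egln3 (0.034, under the minimum level) no longer below 0, each with a counting interval that includes equality.

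For transferred against endogenous cells in the control arm, median scaling gave 3 lower, 50 CPM gave 2 higher and 2 lower, the stricter filter 2 higher, leaving out the 6% deepest cells 7 higher and 3 lower, and equal weights 0 lower. Without cells holding a cycle UMI 7 were higher and 1 lower (median 0.022). Cell types from clusters gave 7 and 1 with a median of 0.090 and Egln3 changing sign (0.20), and CD8-majority clusters 1 lower with a median of 0.14 and Egln3 at equality and under the minimum level (0.0052). In the IRF4 arm the median was 0.49 with median scaling and 0.33 with equal weights, 4 genes were higher at 50 CPM and 12 without the 6% deepest cells, and 1 was lower with no minimum level. Without cells holding a cycle UMI 1 was lower, with a median of 0.33.

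For monocytes and macrophages between arms, the median was -0.33 with median scaling and -0.31 with cell types from clusters. At 50 CPM 0 were higher and 1 lower (median -0.42). Without the 6% deepest cells 8 were lower (median -0.42), and with equal weights 10 (median -0.43). Cluster 1 gave 0 lower (median -0.20), cluster 9 gave 3 higher and 1 lower (median 0.065, Egln3 no longer below 0, at 0.067), cluster 13 gave 5 higher and 1 lower (median -0.18), and leaving out cluster 13 gave 6 lower (median -0.46). The summed level over that of B cells was 2.92 from clusters and 1.97 with the stricter filter in the IRF4 arm, and 4.68 and 3.74 in the control arm. Without thinning, the share of cells with a UMI of the 5 HIF-induced genes was 75.6%, 75.4%, 62.8% and 62.6% in CD8 T cells (transferred IRF4, transferred control, endogenous IRF4, endogenous control) and 74.2% and 88.6% in monocytes and macrophages.

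Single libraries limit every comparison between arms: a difference between mice, tumours or library preparations cannot be told apart from the arm. The endogenous control and transferred IRF4 libraries, with 10233446 and 12573786 UMIs in gated CD8 T cells, limit the precision most for low genes such as Ldhb.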
